A study of Mus musculus with 18 samples.

Results

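Histone lysine demethylases are enzymes that take methyl groups off lysines of histones, and 10 of their genes were followed here in mouse macrophages: Kdm1a, Kdm2a, Kdm2b, Kdm3a, Kdm4a, Kdm4b, Kdm5a, Kdm5b, Kdm6b and Kdm7a. They were listed by name, with earlier results of these data known, and all 10 were found among the 19475 genes measured by a probe set with a single gene. The cells were primary macrophages grown from bone marrow, taken on day 7 of differentiation, from mice of a mixed background, 94% C57BL/6 and 6% 129/Ola. The donors were Wbp7+/- (HET) or Wbp7-/- (KO). Wbp7, also named Kmt2b, encodes a methyltransferase for H3K4, lysine 4 of histone H3. The control cells therefore also carried 1 mutant allele, and no wild-type cells were compared. Cells of each genotype were untreated (HET UT, KO UT) or received 10 ug/ml lipopolysaccharide (LPS), a component of bacterial outer membranes, for 2 h or 4 h, which gave 6 groups of 3 arrays. The labels give neither the age of the mice nor whether arrays came from separate mice, so p-values measure the spread between these arrays, which may be technical.

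Methyl marks on histone lysines are written by methyltransferases, read by binding proteins and erased by demethylases of 2 families: the flavin-dependent LSD enzymes, such as Kdm1a, and the iron- and oxoglutarate-dependent enzymes with a JmjC domain, to which the other genes here belong. Kdm5a, Kdm5b and Kdm1a act on H3K4, whose methylation marks promoters and enhancers and is the product of Wbp7 itself. Kdm2a and Kdm2b act mainly on H3K36 and bind unmethylated CpG sites through a zinc finger. Kdm3a and the Kdm4 enzymes act on H3K9, Kdm7a acts on H3K9 and H3K27, and Kdm6b, also known as Jmjd3, acts on H3K27, the mark laid down by Polycomb repressive complex 2 (PRC2). Kdm6b is known as a gene that macrophages induce within hours of meeting LPS.

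Values are log2 signals of Affymetrix gene arrays, normalised by the authors. The median signal per array was 8.051 to 8.129 and the lower quartile 6.706 to 6.988. No member fell below its array's lower quartile on any array. In HET cells the arrays with replicate number 1 differed from their groups at each time. Their difference from the mean of the group's other arrays had an SD over all genes of 0.438 to 0.502, and that of every other array one of 0.17 to 0.338. The median of 19 measured cell cycle genes was 8.288 to 8.925 on these 3 arrays and 11.16 to 11.95 on the other 15. The 9 measured macrophage markers averaged 12.99 to 13.42 per array, all above the array median. The measured markers of other cells averaged 7.886 to 9.081 for neutrophils and progenitors (6 of 8 above the median), 7.201 to 7.583 for lymphocytes (1 of 6), 7.119 to 7.589 for dendritic cells (0 of 5), 6.369 to 6.733 for erythroid and mast cells (0 of 5) and 7.781 to 8.604 for stroma (2 to 3 of 5). The probe set named Kmt2b read 10.05 to 10.97 in HET and 9.94 to 10.73 in KO, so that it did not separate the genotypes and gives no check of the labels. Since RNA of whole cultures was measured, fewer cells of a type and less RNA per cell cannot be told apart.

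**Figure D1:**
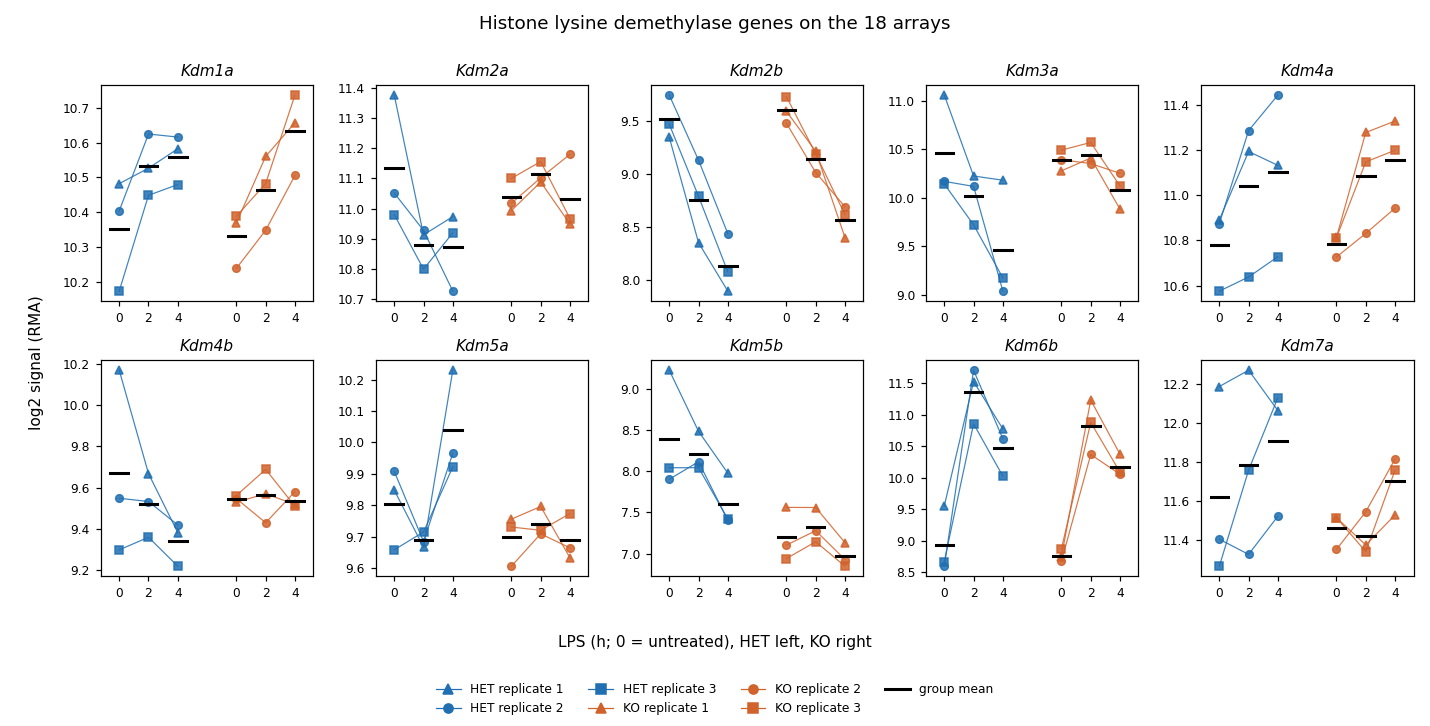
The log2 signal (y axis) of each demethylase gene on all 18 arrays against hours of LPS (x axis, 0 is untreated), with HET in blue on the left and KO in orange on the right of each panel. Symbols give the replicate number, thin lines join arrays of the same number and genotype, and black bars are group means of 3 arrays. Kdm6b rose at 2 h and 4 h in both genotypes, and Kdm2b was lower at 4 h than untreated in each replicate number. The KO arrays lay below the HET arrays for Kdm5b at all 3 times. KO and HET arrays did not overlap for 8.63%, 19.9% and 27.3% of all genes at these times, in either direction.

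After LPS the members moved apart rather than together: Kdm6b rose in both genotypes, Kdm2b fell in both, and most others moved by less than 0.5 log2 units. A gene is said to have risen or fallen where its limma p, adjusted over all 19475 genes of the contrast with the Benjamini-Hochberg method, was under 0.05. In HET cells at 2 h, 1 of 10 members rose (Kdm6b) where 5.56% of all genes did, and 1 fell (Kdm2b) where 10.0% did. At 4 h in HET cells 1 rose (Kdm6b), against 15.7% of all genes, and 3 fell (Kdm2b, Kdm3a and Kdm5b), against 20.7%. In KO cells at 2 h 1 rose (Kdm6b) and none fell, against 2.0% and 1.35% of all genes. At 4 h in KO cells 2 rose (Kdm6b and Kdm1a) and 1 fell (Kdm2b), against 6.48% and 9.28%. The medians of the 10 changes were close to 0 throughout: -0.13 and -0.03 in HET cells at 2 h and 4 h, where all genes had 0.02 and 0.09, and 0.07 and -0.01 in KO cells, where all genes had 0.02 at both times. The 2 h and 4 h changes of a genotype share their untreated arrays and are not independent of each other.

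Within a genotype, same-numbered arrays shared deviations from their group means, so each change was also fitted with that number as a block within the genotype. The block changed the calls of several members. With it, 4 members were called in HET cells at 2 h (27.8% of all genes), adding Kdm2a and Kdm3a, and 9 at 4 h (55.0% of all genes), all but Kdm7a. In KO cells it called 2 at 2 h (8.14%), adding Kdm2b, and 4 at 4 h (28.6%), adding Kdm4a. Cell cycle genes moved with LPS as well: of 19 measured, 1 fell at 4 h in each genotype, and 17 in HET and 16 in KO cells with the block. Of 9 macrophage markers, 2 rose in HET cells at 4 h, and 4 rose and 1 fell in KO cells. At 4 h 15.7% of all genes rose and 20.7% fell in HET cells, and 6.48% and 9.28% in KO cells. The part of cell cycle genes or macrophage markers in the changes below was not tested.

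**Figure D2:**
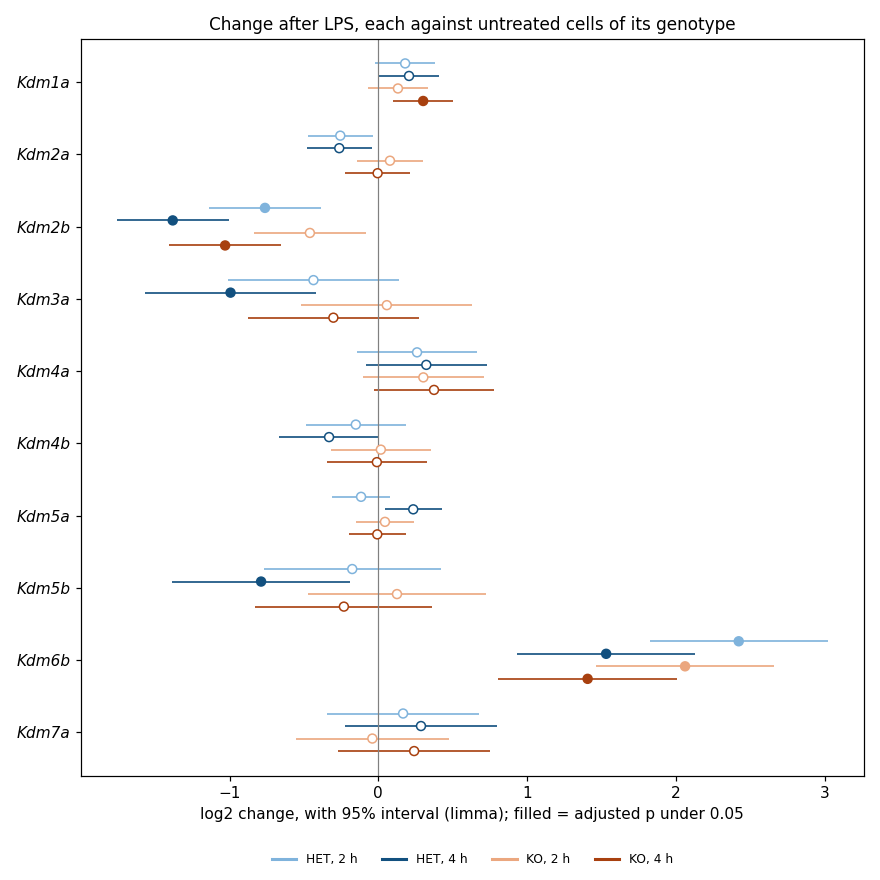
Change of each demethylase gene after LPS (x axis, log2 units) against untreated cells of the same genotype, with the 95% interval of the limma fit over 18 arrays. Light and dark blue are HET at 2 h and 4 h, light and dark orange are KO, and filled points passed the threshold. Kdm6b stood far to the right in all 4 comparisons (1.41 to 2.42) and Kdm2b to the left (-0.46 to -1.38).

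Kdm6b (probe set 10387372, chromosome 11), the H3K27 demethylase, had the widest range of the 10 genes over the arrays, 3.11 log2 units. In HET cells it stood at 9.56, 8.60 and 8.67 on the untreated arrays (replicates 1, 2 and 3, in this order throughout), at 11.53, 11.71 and 10.86 after 2 h, and at 10.78, 10.62 and 10.03 after 4 h. In KO cells it stood at 8.75, 8.68 and 8.87 untreated, at 11.23, 10.37 and 10.88 after 2 h, and at 10.37, 10.06 and 10.09 after 4 h. In both genotypes every LPS array lay above every untreated array, and within each replicate number the 2 h array was the highest of the 3 times. In HET cells 26.7% of all genes at 2 h and 46.5% at 4 h had no overlap with untreated arrays, in either direction. In KO cells 26.4% and 41% had none. These shares apply wherever LPS and untreated arrays are said below not to overlap.

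At 2 h the rise of Kdm6b was 2.42 ± 0.28 log2 units (SE, n = 3 arrays per group, here and below) in HET cells, a 5.36-fold change with an adjusted p of 2.70e-05. In KO cells it was 2.06 ± 0.28, or 4.17-fold, with an adjusted p of 0.000359. At 4 h the rises were 1.53 (adjusted p = 0.000574) and 1.41 (adjusted p = 0.00245). All 4 calls held under every alternative fit run, with rises between 1.31 and 2.73. The level at 4 h was lower than at 2 h by -0.89 in HET cells (adjusted p = 0.0668) and by -0.65 in KO cells (adjusted p = 0.291), which did not pass. With the replicate block both differences passed (adjusted p = 0.00416 and 0.0354), and without the HET array numbered 3 at 2 h the HET difference was -1.14 (adjusted p = 0.0312). Without the 3 HET arrays numbered 1 it was -0.96 (adjusted p = 0.0386). The decline from 2 h to 4 h was seen in 3 of 3 replicate numbers of each genotype.

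Among all 19475 genes, the 5 whose pattern over the 18 arrays was most like that of Kdm6b were Phldb1 (Pearson r = 0.977), C9orf72 (0.974), Prdm1 (0.972), Relb (0.971) and Sertad2 (0.968). Prdm1 encodes the transcriptional repressor Blimp-1 and Relb a subunit of NF-kappaB. These correlations describe 18 arrays that share groups and replicate numbers, and were not tested. Of 16 immediate LPS response genes, such as those of cytokines and NF-kappaB feedback inhibitors, 13 rose at 2 h in each genotype. Of all genes 5.56% did so in HET and 2.0% in KO cells. The median changes of the list were 2.63 in HET and 2.46 in KO cells. None of that list fell at either time.

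Kdm6b erases what PRC2 writes. Of 10 measured PRC2 genes, 2 rose and 1 fell in HET cells at 2 h, and 1 rose and 2 fell at 4 h in each genotype. With the replicate block, 2 and 3 did so in HET cells at 2 h, 1 and 6 at 4 h, and 2 and 4 in KO cells at 4 h. Of all genes, 5.56% rose and 10.0% fell in HET cells at 2 h. At 4 h 15.7% and 20.7% did so in HET and 6.48% and 9.28% in KO cells. The block called 27.8% and 55.0% of all genes in HET cells at 2 h and 4 h and 28.6% in KO cells at 4 h, in either direction. Aebp2, a cofactor of the complex, rose by 1.16 at 2 h and 1.07 at 4 h in HET cells, and by 0.91 and 1.00 in KO cells. Eed, the core subunit that binds the methylated lysine, fell by 1.16 in HET and by 0.59 in KO cells at 4 h. Jarid2, a JmjC protein without known demethylase activity that accompanies PRC2, rose by 0.86 at 2 h in HET cells and by 0.75 and 0.84 at 4 h in HET and KO cells. Kdm6a, the close relative of Kdm6b, falls outside the rule for named genes and was chosen after its values were seen: its changes at 4 h were -0.46 in HET (adjusted p = 0.00217) and -0.33 in KO cells (adjusted p = 0.0383), opposite in sign to those of Kdm6b.

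Kdm2b (probe set 10533569, chromosome 5), a component of the BCOR form of Polycomb complex 1 that binds CpG-rich promoters, fell after LPS and was lower still at 4 h. HET cells had 9.35, 9.75 and 9.47 untreated, 8.35, 9.13 and 8.79 at 2 h and 7.90, 8.44 and 8.08 at 4 h. KO cells had 9.59, 9.48 and 9.73 untreated, 9.22, 9.02 and 9.19 at 2 h and 8.40, 8.69 and 8.62 at 4 h. The untreated arrays were the highest of their genotype, with no overlap with either LPS time, and in KO cells the 2 h and 4 h arrays did not overlap either. Between these 2 times 26.6% of all genes did not overlap in KO cells, in either direction.

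In HET cells Kdm2b fell by 0.76 ± 0.18 at 2 h (adjusted p = 0.00725) and by 1.38 ± 0.18 at 4 h (adjusted p = 2.24e-05), which left 0.384 of the untreated signal. In KO cells it fell by 1.03 ± 0.18 at 4 h (adjusted p = 0.000683), which left 0.490 of it. The KO change at 2 h was -0.46, with a 95% interval of -0.84 to -0.09 and an adjusted p of 0.259, and 0.00966 with the replicate block. The calls at 4 h held under every alternative run. The HET call at 2 h was lost in 1 of 17 alternatives, the fit limited to the 6 arrays compared (adjusted p = 0.097). From 2 h to 4 h Kdm2b fell by a further 0.62 in HET cells (adjusted p = 0.0408), where 4.39% of all genes fell and 3.8% rose. That last call was lost without the HET 4 h array numbered 1 (-0.50, adjusted p = 0.186) or 3 (-0.59, 0.096) and without the HET 2 h array numbered 2 (-0.43, 0.23) or 3 (-0.60, 0.114), and in the fit limited to the arrays compared (0.342). In KO cells the further change was -0.57 (adjusted p = 0.0902, and 0.00194 with the replicate block).

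The windows of 250 bases before 4 transcription starts are shown for the members that fell after LPS and for which the RefSeq promoter table held a start. In all, 6 of the 10 members matched that table, with 11 starts. Kdm2a, Kdm4b, Kdm5a and Kdm6b did not. Sequences are from RefSeq on build GRCm38.p6, written 5′ to 3′ on the strand of the gene, each ending at the base before the start. Capitals mark every match, on either strand, to 5 short motifs: a kappaB-like GGGNNNNNCC, the AP-1 site TGANTCA, the cyclic AMP response element core TGACG, and the hypoxia response cores ACGTG and GCGTG. These motifs can overlap, and adjoining capitals may hold more than 1. Of all 32851 windows of this length in the table, 45.8% held the kappaB-like motif, 6.75% the AP-1 site, 17.8% TGACG, 16.6% ACGTG and 28.2% GCGTG. A match is a string of letters and not a binding site. The first 2 sequences are Kdm2b, its outermost start and the inner CpG-dense start, then Kdm3a at its outermost start and Kdm5b at its single start.
Kdm2b outer, chr5:122989100-122989349, minus strand: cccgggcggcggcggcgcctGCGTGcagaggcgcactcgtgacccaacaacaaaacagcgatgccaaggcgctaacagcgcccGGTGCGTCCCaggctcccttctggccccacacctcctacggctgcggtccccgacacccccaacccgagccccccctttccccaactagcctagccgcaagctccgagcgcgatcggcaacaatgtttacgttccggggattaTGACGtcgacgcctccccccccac
Kdm2b inner, chr5:122900351-122900600, minus strand: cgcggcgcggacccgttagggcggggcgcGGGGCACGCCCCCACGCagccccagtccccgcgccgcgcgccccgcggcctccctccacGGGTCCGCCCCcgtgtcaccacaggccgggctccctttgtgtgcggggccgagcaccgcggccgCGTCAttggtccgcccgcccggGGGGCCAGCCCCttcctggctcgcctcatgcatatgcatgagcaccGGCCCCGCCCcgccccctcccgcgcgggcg
Kdm3a, chr6:71632918-71633167, minus strand: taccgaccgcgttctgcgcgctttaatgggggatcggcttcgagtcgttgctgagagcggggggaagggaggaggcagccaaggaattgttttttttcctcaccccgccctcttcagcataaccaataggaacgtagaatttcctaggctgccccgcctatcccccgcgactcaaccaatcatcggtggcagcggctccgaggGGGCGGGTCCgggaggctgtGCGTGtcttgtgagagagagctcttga
Kdm5b, chr1:134559928-134560177, plus strand: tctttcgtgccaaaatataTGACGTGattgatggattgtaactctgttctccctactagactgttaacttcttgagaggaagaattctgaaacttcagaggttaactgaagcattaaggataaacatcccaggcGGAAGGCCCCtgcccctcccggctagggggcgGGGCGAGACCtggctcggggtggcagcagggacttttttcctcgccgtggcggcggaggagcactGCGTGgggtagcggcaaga
The outer Kdm2b window held 27 CpG dinucleotides and the inner one 38, against a median of 6 over all windows. The inner window had 9 kappaB-like matches, among a GC content of 80.8%, and the outer had 1. Of the other Kdm2b windows, not shown, chr5:122988508-122988757 held 12 CpG, 2 kappaB-like matches and 1 GCGTG. The window chr5:122900368-122900617, which overlaps the inner one, held 36 CpG and 9 kappaB-like matches. The Kdm3a window held 20 CpG, 1 kappaB-like match and 1 GCGTG. Of the other Kdm3a windows, not shown, chr6:71632687-71632936 held 31 CpG, 2 kappaB-like matches and 1 AP-1 site. The window chr6:71609140-71609389 held 0 CpG and 2 kappaB-like matches. The Kdm5b window held 13 CpG, 2 kappaB-like matches, 1 TGACG that overlaps 1 ACGTG, and 1 match to GCGTG.

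Kdm2a (probe set 10464728, chromosome 19), the paralog of Kdm2b, moved little. In HET cells its 6 LPS arrays, at 10.73 to 10.97, lay below the 3 untreated ones at 10.98 to 11.38, yet the changes of -0.26 at both times did not pass (adjusted p = 0.118 and 0.0571). With the replicate block both passed (adjusted p = 0.0489 and 0.0249), as did the 4 h change without the untreated HET array numbered 3 (-0.34, adjusted p = 0.0318). In KO cells Kdm2a spanned 10.95 to 11.18, with changes of 0.08 and -0.01.

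Of 9 measured partners of Kdm2b in the BCOR complex, 3 rose and none fell in HET cells at 2 h, and 2 rose and 2 fell at 4 h. With the replicate block 3 rose and 2 fell at 2 h. In KO cells 2 rose at 2 h and none passed at 4 h, where the block called 1 in each direction. Of all genes, 5.56% rose and 10.0% fell in HET cells at 2 h, and 15.7% and 20.7% at 4 h. In KO cells it was 2.0% and 1.35% at 2 h, and 6.48% and 9.28% at 4 h. The block called 27.8% of all genes in HET cells at 2 h and 28.6% in KO cells at 4 h, in either direction. Bcor, the scaffold of the complex, rose by 1.85 in HET and by 1.60 in KO cells at 2 h, and Rnf2, its ubiquitin ligase, by 1.04 and 0.82, while the level of Kdm2b was lower at that time. Bcorl1, the relative of Bcor, was lower in KO than in HET cells by 0.94 at 2 h and by 0.60 at 4 h.

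Kdm3a (probe set 10545308, chromosome 6), an H3K9 demethylase known as a target of the hypoxia-inducible factors, fell in HET cells at 4 h. HET cells had 11.06, 10.17 and 10.14 untreated, 10.23, 10.12 and 9.72 at 2 h, and 10.18, 9.04 and 9.17 at 4 h. KO cells had 10.28, 10.39 and 10.49 untreated, 10.41, 10.35 and 10.57 at 2 h, and 9.88, 10.25 and 10.12 at 4 h. The HET array numbered 1 was the highest of its group at each time, which made the untreated and 4 h groups overlap, although the 4 h array was the lower in all 3 replicate numbers (-0.88, -1.13 and -0.97).

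The fall of Kdm3a in HET cells at 4 h was -0.99 ± 0.27 (adjusted p = 0.00975), and at 2 h the change was -0.44 (adjusted p = 0.341, and 0.0401 with the replicate block). The 4 h call was lost under quantile normalization (-0.72, adjusted p = 0.0831) and in the fit of its arrays alone (adjusted p = 0.104). In KO cells the 4 h change was -0.30, with a 95% interval of -0.88 to 0.27. From 2 h to 4 h in HET cells Kdm3a changed by -0.56 (adjusted p = 0.273), which passed with the replicate block (0.017), without the HET 4 h array numbered 1 (-0.92, 0.0287) and without all 3 HET arrays numbered 1 (-0.81, 0.00187). Of 16 hypoxia-inducible genes, 2 rose and 4 fell in HET cells at 4 h and 1 each in KO cells (6 and 5, and 6 and 2, with the replicate block). Of all genes, 15.7% rose and 20.7% fell in HET cells and 6.48% and 9.28% in KO cells. The block called 55.0% in HET and 28.6% in KO cells, in either direction. At 4 h Pfkfb3, a regulator of glycolysis, rose by 3.08 in HET and 1.94 in KO cells. Its relative Pfkfb4 fell by 1.54 and 0.70.

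Kdm4a (probe set 10515590, chromosome 4), which acts on trimethylated H3K9 and H3K36, stood at 10.89, 10.87 and 10.58 in untreated HET cells and at 11.13, 11.45 and 10.73 after 4 h. KO cells had 10.81, 10.73 and 10.81 untreated and 11.33, 10.94 and 11.20 after 4 h, without overlap. In each replicate number of both genotypes the LPS arrays were the higher. Changes were 0.26 and 0.32 in HET and 0.30 and 0.37 in KO cells at 2 h and 4 h, with adjusted p-values between 0.188 and 0.621. With the replicate block both 4 h changes passed (0.0102 in HET, 0.00765 in KO), and the HET one also passed without the 4 h array numbered 3 (0.51, adjusted p = 0.0482).

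Kdm4b (probe set 10446084, chromosome 17), of the same subfamily, spanned 9.43 to 9.69 on the 9 KO arrays and 9.22 to 10.17 in HET, where the untreated array numbered 1 was the highest. Its HET change at 4 h was -0.33 (adjusted p = 0.111), which passed with the replicate block (0.0293) and without the untreated HET array numbered 3 (-0.52, adjusted p = 0.0162). Kdm7a (probe set 10544148, chromosome 6), with a PHD finger that reads methylated H3K4, spanned 11.27 to 12.27 in HET and 11.34 to 11.82 in KO cells. Its changes ran from -0.04 to 0.29 and none passed, except at 4 h in HET cells without the 3 arrays numbered 1 (0.49, adjusted p = 0.04995). A second probe set of Kdm7a gave changes of the same sign in every comparison, and none passed. Some were larger, with 0.31 at 2 h and 0.56 at 4 h in HET cells.

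Kdm5b (probe set 10350046, chromosome 1), an H3K4 demethylase, lay lower in KO than in HET cells on the arrays of each time. HET cells had 9.22, 7.90 and 8.04 untreated, 8.48, 8.11 and 8.04 at 2 h and 7.97, 7.40 and 7.42 at 4 h. KO cells had 7.56, 7.11 and 6.94 untreated, 7.56, 7.28 and 7.15 at 2 h and 7.13, 6.93 and 6.85 at 4 h. The KO values, 6.85 to 7.56, were below the array medians, and the lowest were near the lower quartiles. The gene's mean over all arrays, 7.617, was under the limit of 7.63 used where dim genes were left out. Every KO array lay below every HET array of the same time. Between KO and HET, 8.63% of all genes did not overlap untreated, 19.9% at 2 h and 27.3% at 4 h, in either direction. In both genotypes replicate 1 was the highest or nearly so.

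After 4 h of LPS Kdm5b fell by 0.79 ± 0.28 in HET cells (adjusted p = 0.0385), with 0.000406 under the replicate block. That call was lost without the untreated array numbered 1 (-0.37, adjusted p = 0.154), the 4 h array numbered 2 (-0.69, 0.1) or 3 (-0.70, 0.095), and in the fit of its arrays alone (0.162). Without all 3 arrays numbered 1 the change was -0.56 (adjusted p = 0.0248). In KO cells the change at 4 h was -0.23 (95% interval -0.83 to 0.36). The 4 h array was lower than the 2 h array in all 3 replicate numbers of each genotype. That difference was -0.61 in HET cells, which passed with the replicate block (adjusted p = 0.00803) and without the 3 arrays numbered 1 (-0.67, 0.0223) and had an adjusted p of 0.239 without either step.

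Kdm5a (probe set 10541216, chromosome 6), the relative of Kdm5b, had 9.85, 9.91 and 9.66 in untreated HET cells, 9.67, 9.68 and 9.71 at 2 h and 10.23, 9.97 and 9.92 at 4 h. On the 9 KO arrays it kept between 9.61 and 9.80. In HET cells the 4 h arrays were the highest, above all untreated and 2 h arrays. Between 2 h and 4 h 16.9% of all genes did not overlap in HET cells, in either direction. The rise from 2 h to 4 h was 0.35 ± 0.09 (adjusted p = 0.0244). It did not pass without the 4 h array numbered 1 (0.26, adjusted p = 0.118), the 2 h array numbered 2 (0.35, 0.0877) or 3 (0.36, 0.0583), or the 3 arrays numbered 1 (0.24, 0.115), nor with a trended robust prior (0.0516) or its arrays alone (0.283). Against untreated cells the HET change at 4 h was 0.23 (adjusted p = 0.0535, and 0.0313 with the replicate block), and it passed without the untreated array numbered 2 (0.29, 0.0459) or the 4 h array numbered 3 (0.29, 0.0318). Its size depended on the normalization. It was 0.50 with quantile normalization (adjusted p = 0.00532) and 0.26 with arrays centred on their medians (0.0302), and it passed with dim genes left out (0.0436).

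Kdm1a (probe set 10517465, chromosome 4), the LSD enzyme of the CoREST repressor complex, rose slightly. KO cells had 10.37, 10.24 and 10.39 untreated, 10.56, 10.35 and 10.48 at 2 h and 10.66, 10.51 and 10.74 at 4 h, and the 4 h arrays lay above the untreated ones. HET cells had 10.48, 10.40 and 10.17 untreated and 10.58, 10.62 and 10.48 at 4 h. The KO rise at 4 h was 0.30 ± 0.10 (adjusted p = 0.0431). It was lost without any 1 of the 3 untreated KO arrays, or without the KO 4 h array numbered 1 or 3 (0.25 to 0.33, adjusted p = 0.0743 to 0.166), and with a trended robust prior (0.0752). In HET cells the 4 h change of 0.21 did not pass (adjusted p = 0.101), and passed with the replicate block (0.0203). With quantile normalization it was 0.37 and passed (adjusted p = 0.0185). Of 11 measured CoREST partners, 4 rose and 5 fell in HET and 2 rose and 3 fell in KO cells at 4 h (4 and 5, and 3 and 5, with the replicate block). Of all genes, 15.7% rose and 20.7% fell in HET cells and 6.48% and 9.28% in KO cells. The block called 55.0% in HET and 28.6% in KO cells, in either direction. At 4 h Rcor3, a CoREST scaffold, fell by 1.39 in HET and by 1.06 in KO cells. Phf21a, which reads unmethylated H3K4, rose by 0.89 and 0.50.

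From 2 h to 4 h, 1 member rose (Kdm5a) and 1 fell (Kdm2b) in HET cells, where 3.8% and 4.39% of all genes did. In KO cells none passed, where 4.37% of all genes did, and 2 had an unadjusted p under 0.05 (Kdm2b and Kdm6b). By p-value these 2 ranked 1185 and 2299 among all genes, so at least 2299 genes had an unadjusted p under 0.05. The replicate block called 5 members in HET cells (Kdm2b, Kdm3a, Kdm5a, Kdm5b and Kdm6b; 18.7% of all genes) and 2 in KO cells (Kdm2b and Kdm6b; 11.1%).

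The study set KO against HET cells to ask what the loss of Wbp7 does to macrophage expression. No member passed the limma test at any time. In untreated cells 0 of 10 passed, where 0.416% of all genes did, and 1 had an unadjusted p under 0.05 (Kdm5b). At 2 h it was 0 of 10 against 2.76% of all genes, with 3 under 0.05 unadjusted (Kdm2a, Kdm2b and Kdm5b). At 4 h it was 0 of 10 against 2.42%, with 4 under 0.05 unadjusted (Kdm2b, Kdm3a, Kdm5a and Kdm5b). These shares of all genes are for the adjusted threshold and give no background for the unadjusted counts. By p-value Kdm5b ranked 120 among all genes in untreated cells. The weakest of the 3 at 2 h, Kdm2b, ranked 2800, and the weakest of the 4 at 4 h, Kdm5b, ranked 3439. At least that many genes therefore had an unadjusted p under 0.05. The median over the 10 genes was -0.10, 0.04 and 0.06 at the 3 times, and that of all genes -0.02, 0.00 and -0.06.

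Kdm5b was lower in KO cells by -1.18 ± 0.28 untreated (adjusted p = 0.114), by -0.88 at 2 h (adjusted p = 0.116) and by -0.63 at 4 h (adjusted p = 0.226). The 95% intervals were -1.78 to -0.59, -1.48 to -0.29 and -1.22 to -0.03. With the replicate number as a random block within genotype the untreated difference passed (adjusted p = 0.0381), where 0.452% of all genes did. It also passed with array weights (-0.91, adjusted p = 0.0381). With a replicate block over both genotypes the difference passed at all 3 times (adjusted p = 0.00353, 0.00957 and 0.0377). Across genotypes, however, the deviations of same-numbered arrays had r from -0.3534 to 0.3901. The HET array numbered 1 was the highest for Kdm5b at each time. Without these 3 arrays the differences were -0.77 (adjusted p = 0.056), -0.75 (0.0308, passed) and -0.44 (0.159), where 0.606%, 2.14% and 4.52% of all genes passed. The same 3 arrays were the ones with low cell cycle genes, and the part of either in this difference was not tested.

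Kdm3a lay higher in KO cells at 4 h by 0.62 (95% interval 0.05 to 1.20, adjusted p = 0.217). Without the 3 HET arrays numbered 1 this was 0.98 ± 0.13 (adjusted p = 0.00112, passed), the remaining HET arrays being at 9.04 and 9.17 and the KO arrays at 9.88 to 10.25. With array weights it was 0.95 (adjusted p = 0.00449, passed). It did not pass with the random block (0.62, adjusted p = 0.161) or with a replicate block over both genotypes. At 2 h the Kdm3a difference was 0.42, or 0.53 without the 3 HET arrays numbered 1 (adjusted p = 0.0536). Kdm5a was lower in KO cells at 4 h by -0.35 (95% interval -0.54 to -0.16, adjusted p = 0.0548), with no overlap, as for 27.3% of all genes. It passed without the HET 4 h array numbered 3 (-0.41, adjusted p = 0.0396), with dim genes left out (0.0444) and with a replicate block over both genotypes (0.0357). It did not pass without the 3 HET arrays numbered 1 (-0.25, 0.126) or with the random block (0.0709). Kdm2b was higher in KO cells after LPS, by 0.38 at 2 h and 0.43 at 4 h, with adjusted p-values of 0.322 and 0.194. For Kdm6b the differences were -0.18, -0.54 and -0.30, and the 95% interval at 2 h ran from -1.14 to 0.06.

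For the other members, Kdm1a, Kdm4a and Kdm4b differed by at most 0.20 at any time, Kdm2a by at most 0.24 and Kdm7a by at most 0.37. For Kdm7a at 2 h the 95% interval ran from -0.88 to 0.15. The second probe set of Kdm7a gave a larger difference at 2 h, -0.56 ± 0.26, which did not pass.

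**Figure D3:**
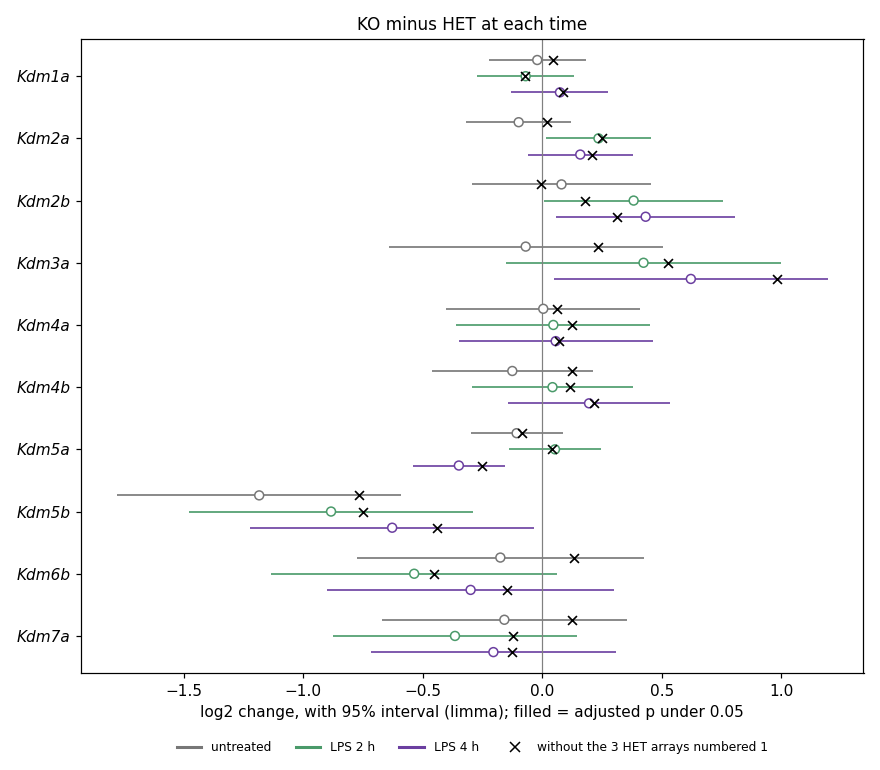
KO minus HET (x axis, log2 units) for each demethylase gene in untreated cells (grey) and after 2 h (green) and 4 h (purple) of LPS, with the 95% interval of the limma fit. Open points did not pass the threshold, and crosses give the value without the 3 HET arrays numbered 1. The 3 Kdm5b intervals lay below 0, from -1.18 to -0.63 at their centres, and its crosses lay closer to 0.

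Whether the LPS response itself differed between genotypes was tested as the KO change minus the HET change. At 2 h 0 of 10 members passed, as did 0.0% of all genes. Among the members, 1 had an unadjusted p under 0.05 (Kdm2a, 0.33, adjusted p = 0.831). By p-value Kdm2a ranked 847 among all genes, so at least 847 genes had an unadjusted p under 0.05. At 4 h 0 of 10 passed, against 0.0513% of all genes, and none had an unadjusted p under 0.05. The largest at 4 h were those of Kdm3a, at 0.69 (95% interval -0.12 to 1.50, adjusted p = 0.761), and Kdm5b, at 0.56 (-0.29 to 1.40, 0.824). Without the 3 HET arrays numbered 1 that of Kdm3a was 0.75 and did not pass (adjusted p = 0.147). The falls of Kdm3a and Kdm5b, called in HET cells alone, were therefore not shown to differ between the genotypes. For Kdm6b the difference was -0.36 at 2 h, with an interval of -1.21 to 0.49. The replicate block called none of these differences either.

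Beyond the 10 members, 22 other genes with an LSD or JmjC domain were measured. In HET cells 2 rose and 8 fell at 2 h, where 5.56% and 10.0% of all genes did, and 3 rose and 7 fell at 4 h, against 15.7% and 20.7%. In KO cells none passed at 2 h (2.0% and 1.35% of all genes), and 2 rose and 7 fell at 4 h (6.48% and 9.28%). The replicate block called 4 and 10, 3 and 9, 2 and 1, and 2 and 7 in the same order, where it called 27.8%, 55.0%, 8.14% and 28.6% of all genes in either direction. Without the 3 HET arrays numbered 1, 2 rose and 5 fell in HET cells at 2 h and 2 rose and 1 fell in KO cells. The shares of all genes called in that fit are not given here, so these counts have no background. In the fit over all 18 arrays the median change of the 22 genes at 4 h was 0.00 in HET and -0.06 in KO cells.

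Riox1, a ribosomal oxygenase, stood at 9.15, 8.97 and 9.12 in untreated HET cells and at 7.69, 7.71 and 7.79 after 4 h, a fall of 1.35 ± 0.13 (adjusted p = 2.14e-06), with no overlap. In HET cells Jmjd1c, of the Kdm3 subfamily, fell by 0.95 at 2 h and 1.16 at 4 h. Without the 3 HET arrays numbered 1 its 2 h change did not pass. Phf2, an H3K9 demethylase, fell by 0.97 at 4 h. In KO cells Jmjd1c fell by 0.88 at 4 h, and Riox2, the relative of Riox1, rose by 0.84. Between genotypes, Jmjd4 was higher in KO cells at 2 h by 0.48 (adjusted p = 0.0492), which did not pass with a random replicate block or without the 3 HET arrays numbered 1, and Phf2 at 4 h by 0.42 (adjusted p = 0.0181). Phf2 read 10.13, 10.30 and 10.26 in HET and 10.69, 10.67 and 10.59 in KO cells at that time.

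**Figure D4:**
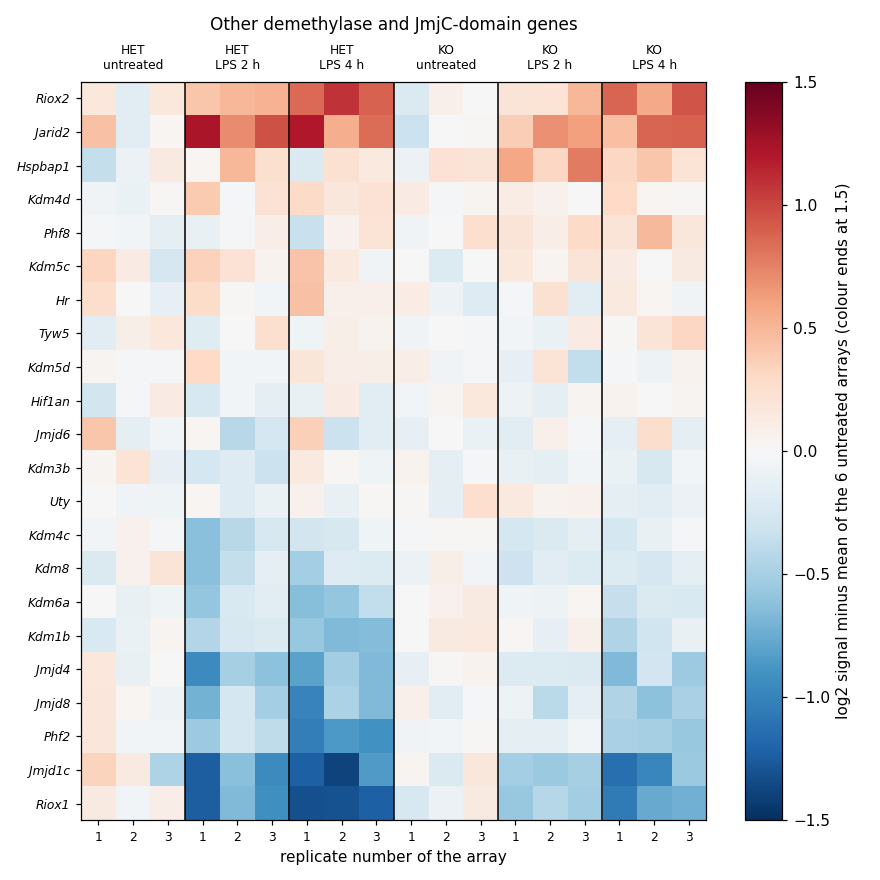
Log2 signal of 22 other LSD and JmjC-domain genes on each of the 18 arrays (columns, by group and replicate number), minus the gene's mean over the 6 untreated arrays of both genotypes. Red is higher and blue lower, and genes are ordered by their mean at 4 h. Riox2 and Jarid2 are at the top, and Phf2, Jmjd1c and Riox1 at the bottom, where values reached -1.39.

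The enzymes that write the same marks were counted at 4 h, where 15.7% of all genes rose and 20.7% fell in HET cells and 6.48% and 9.28% in KO cells. With the replicate block 55.0% of all genes were called in HET and 28.6% in KO cells, in either direction. Among 6 methyltransferases of H3K4, none rose and 3 fell in HET and 1 fell in KO cells (1 rose and 4 fell, and 2 fell, with the replicate block). These included Kmt2b itself, by 0.48 in HET cells (adjusted p = 0.0249, and 0.0747 without the 3 HET arrays numbered 1). Among 5 of H3K9, 1 rose and 2 fell at 4 h in each genotype (1 and 3 with the block). Setdb2 rose by 2.88 and 2.52, while Ehmt1 fell by 1.21 and 0.70 and Setdb1 by 1.18 and 0.71. At 2 h Setdb2 was lower in KO than in HET cells by 1.46 (adjusted p = 0.0102). Among 5 of H3K36, 1 rose (Nsd3, by 1.28 and 0.90) and 2 fell in HET and 1 in KO cells at 4 h (4 and 2 fell with the block). Nsd2 fell by 1.30 and 1.01.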

How the data were processed

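Expression was measured on 18 Affymetrix gene arrays. The deposited values are log2 signals, and the authors used RMA and Partek 6.5, per the submitters' processing notes. Of 25344 probe sets, 21137 named a single gene, and the probe set with the highest mean stood for each of 19475 genes. The 10 members and all gene lists were chosen with earlier results of these data known. A limma 3.58.1 fit (R 4.3.3) of 6 groups over all arrays gave 11 contrasts, and p-values were adjusted over all genes of a contrast with the Benjamini-Hochberg method (threshold 0.05). From each gene list at most the 3 called genes with the largest absolute change in a contrast are named, and Kmt2b always. Arrays of the same replicate number and genotype deviated from their group means together (r = 0.3204 to 0.7962 in 18 pairs). Across genotypes the same numbers gave r from -0.3534 to 0.3901 in 27 pairs. The number was therefore used as a block within each genotype, as an alternative. The labels do not say what a number stands for. Other alternatives were array weights, quantile normalization, a filter on dim probe sets, a trended robust prior, the arrays of a contrast alone, and arrays left out. The fit was tested on simulated data with independent noise on each array. That simulation did not hold the shared deviations of same-numbered arrays and so cannot judge the fit in that respect. The number of arrays limits the precision, and levels are not compared between probe sets.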

Additional observations from a re-analysis of the deposited data

How the results depend on the processing

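The rises of Kdm6b at both times and the falls of Kdm2b at 4 h, in both genotypes, passed under every alternative run, and no called member reversed its direction. The numbers of members called were 0, 0 and 0 for KO minus HET (untreated, 2 h, 4 h), 2 and 4 for HET after LPS (2 h, 4 h), 1 and 3 for KO, and 2 (HET) and 0 (KO) from 2 h to 4 h. The shares of all genes called in this main fit are given above. They changed with the setting too: in HET cells at 4 h 15.7% rose and 20.7% fell, and the fixed block called 55.0%. Counts below without a share beside them therefore do not compare members with all genes. Smaller changes of a count are not all listed. With dim genes left out, KO minus HET at 4 h gave 1 (9 members remained, without Kdm5b). Quantile normalization lost the call of Kdm3a for HET at 4 h and added Kdm1a and Kdm5a. A trended robust prior gave 1 for HET from 2 h to 4 h. Array weights gave 1 for KO minus HET untreated and 1 at 4 h, 2 for KO at 2 h, and 4 (HET) and 2 (KO) from 2 h to 4 h. They also added Kdm2a for HET at 4 h. The arrays of each contrast alone gave 1 and 2 for HET, 2 for KO at 2 h, and 0 (HET) and 1 (KO) from 2 h to 4 h. The fixed replicate block within genotype gave 4 and 9 for HET (27.8% and 55.0% of all genes) and 2 and 4 for KO (8.14% and 28.6%). From 2 h to 4 h it gave 5 for HET (18.7%) and 2 for KO (11.1%). As a random block it gave 1 for KO minus HET untreated (0.452% of all genes), 9 for HET at 4 h and 2 for KO at 2 h. From 2 h to 4 h the random block gave 4 (HET) and 1 (KO). A replicate block over both genotypes gave 1, 1 and 2 for KO minus HET, and 4 (HET) and 1 (KO) from 2 h to 4 h. Without the 3 HET arrays numbered 1, KO minus HET gave 1 at 2 h (2.14% of all genes) and 1 at 4 h (4.52%). HET from 2 h to 4 h gave 4, and Kdm7a was added for HET at 4 h. With 1 array left out at a time, the counts ran from 0 to 1 for KO minus HET at 4 h, from 3 to 6 for HET at 4 h, from 2 to 3 for KO at 4 h, and from 0 to 2 for HET from 2 h to 4 h. The cause was not tested. The number of arrays, 3 a group, limits which small changes could be called.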
